A study of Mus musculus with 2 samples.

Results

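The chemokine receptors described here are 9 genes, Cxcr2, Ccr1, Ccrl2, Cxcr4, Ccr2, Cx3cr1, Cxcr6, Ccr7 and Ccr9, out of 31053 genes measured in leukocytes of the mouse cochlea. The genes were listed by name, with earlier results of these data known, and no measured value of theirs decided which barcodes went into which cell lineage. Counts of members set beside shares of all genes therefore rest on a list that is not independent of the data. Living CD45+ cells were sorted from the cochleae of untreated controls, called sham in the protocol, and of mice 3, 7 and 14 days after exposure to noise. Each of the 4 conditions was 1 pool of cells from 6 mice, so there was no replicate of a condition. Every pool carried its own hashtag antibody before sorting, and 1 droplet library with poly(A) capture was read for all of them. Genotype, strain, age and sex of the mice, and the noise dose, are not given in the sources used here.

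Chemokine receptors are G protein-coupled receptors with 7 transmembrane segments that steer leukocytes along gradients of small secreted proteins. Cxcr2 and Ccr1 bring neutrophils and other myeloid cells to inflamed tissue, Ccr2 lets monocytes leave the bone marrow, and Cx3cr1 marks monocytes and tissue macrophages. Cxcr4 holds neutrophils and B cell precursors in the marrow through its ligand Cxcl12, while Ccr7, Ccr9 and Cxcr6 guide lymphocytes and dendritic cells to lymph nodes, gut and peripheral tissue. Ccrl2 is an atypical member that binds the chemoattractant chemerin without coupling to G proteins.

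Of the 9 genes, 6 lie on mouse chromosome 9 in the GENCODE annotation of GRCm38. Ccrl2 (chr9:111054486-111057519) and Cx3cr1 (chr9:119901616-120069879) stand apart from a cluster of Ccr9 (chr9:123678439-123784330), Cxcr6 (chr9:123806475-123811760), Ccr1 (chr9:123962124-123968692) and Ccr2 (chr9:124101950-124113557). In that cluster the gaps between neighbouring members were 22.1, 150.4 and 133.3 kb. Cxcr2 (chr1:74153989-74161246) and Cxcr4 (chr1:128588199-128592293) are on chromosome 1 and Ccr7 (chr11:99144196-99155077) is on chromosome 11. The Cx3cr1 and Ccr9 gene models overlap other genes on the same strand (Csrnp1, Gorasp1 and Xirp1, and Gm17020 and Gm17200), so their counts depend on how shared reads were assigned.

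The upstream sequences of 4 receptors are shown because these genes differed most clearly between neutrophil stages or between pools. Each is the 250 bases before the RefSeq start on GRCm38.p6, read 5′ to 3′ on the strand of the gene, and capitals mark matches to a motif. The motifs searched on both strands were kappaB (GGG and CC parted by any 5 bases), PU.1 (GAGGAA), C/EBP (TTGCNNAA) and AP-1 (TGANTCA). They occurred in 45.8%, 23.3%, 9.56% and 6.75% of the 32851 promoter windows of that length in the table.
Cxcr2, chr1:74153744-74153993, plus strand: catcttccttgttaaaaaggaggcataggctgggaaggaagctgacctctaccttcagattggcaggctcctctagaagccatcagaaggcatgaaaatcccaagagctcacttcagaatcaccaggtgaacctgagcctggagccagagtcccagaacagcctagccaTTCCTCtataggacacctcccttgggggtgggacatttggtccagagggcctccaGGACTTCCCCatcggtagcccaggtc
Ccr1, chr9:123968693-123968942, minus strand: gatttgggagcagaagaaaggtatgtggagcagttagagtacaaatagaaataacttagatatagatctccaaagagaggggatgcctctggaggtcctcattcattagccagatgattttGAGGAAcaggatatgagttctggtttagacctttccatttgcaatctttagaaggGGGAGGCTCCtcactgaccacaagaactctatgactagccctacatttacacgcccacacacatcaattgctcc
Ccrl2, chr9:111057519-111057768, minus strand: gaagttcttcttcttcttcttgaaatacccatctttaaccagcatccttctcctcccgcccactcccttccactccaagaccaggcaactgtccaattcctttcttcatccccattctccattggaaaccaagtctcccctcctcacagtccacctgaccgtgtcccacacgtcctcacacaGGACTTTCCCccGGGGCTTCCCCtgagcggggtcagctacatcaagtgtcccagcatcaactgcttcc
Cxcr4, chr1:128592300-128592549, minus strand: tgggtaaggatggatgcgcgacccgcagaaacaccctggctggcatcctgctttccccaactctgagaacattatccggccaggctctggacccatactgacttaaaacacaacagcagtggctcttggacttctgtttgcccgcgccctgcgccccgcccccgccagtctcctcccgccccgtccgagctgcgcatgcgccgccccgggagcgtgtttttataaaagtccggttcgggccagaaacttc

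The Ccrl2 window held 3 kappaB matches between 68 and 55 bases before the start, a pair of which overlap. Cxcr2 and Ccr1 each held 1 kappaB match, 26 and 74 bases before the start, and 1 PU.1 match, 81 and 129 bases before it. The Cxcr4 window held none of the 4 motifs in these letters. Among the receptor windows not shown, Ccr9 held 2 kappaB matches and Cx3cr1 held 1. Those of Ccr2 and Cxcr6 held none of the 4 motifs. A match is a string of letters and was not tested as a binding site.

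After filtering, 1285 barcodes with a single hashtag held 14626863 gene UMIs (unique molecular identifiers, each counting 1 captured transcript). They came as 341 sham, 551 day 3, 216 day 7 and 177 day 14 barcodes with medians of 6528, 8378, 7404 and 7190 UMIs. Barcodes were sorted into lineages by 21 lists of marker genes that contain no chemokine receptor. This gate placed 1188 barcodes in a lineage, left 53 between gates and 44 outside every gate, and 63 of the placed barcodes lay near a boundary. In all, 13 lineages had at least 8 barcodes, and the CD45 gene Ptprc was detected in 74.9% (B cell precursors) to 100% of their barcodes. Levels below are counts per 1000000 UMIs of the same lineage (CPM) with exact Poisson 95% intervals, which cover counting error only. Shares of barcodes with a UMI carry Clopper-Pearson intervals with the same limit.

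At least 1 of the 9 receptors was detected in 95.2% of the barcodes, with a median of 2 receptors per barcode. Among lineages of at least 8 barcodes the median was 4 in monocytes, 3 in mature neutrophils and in mast cells or basophils, and 1 or 2 in the others. Cxcr4 was the most widely detected member, in 77.2% of barcodes (4507 UMIs), followed by Cxcr2 in 40.2% (2678 UMIs), Ccr1 in 38.6% (2210 UMIs) and Ccrl2 in 21.9% (1450 UMIs). Ccr7 and Ccr2 were detected in 14.4% and 14.3% (472 and 1744 UMIs), Cx3cr1 in 6.15% (567 UMIs), Cxcr6 in 5.68% (420 UMIs) and Ccr9 in 2.57% (116 UMIs).

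**Figure D1:**
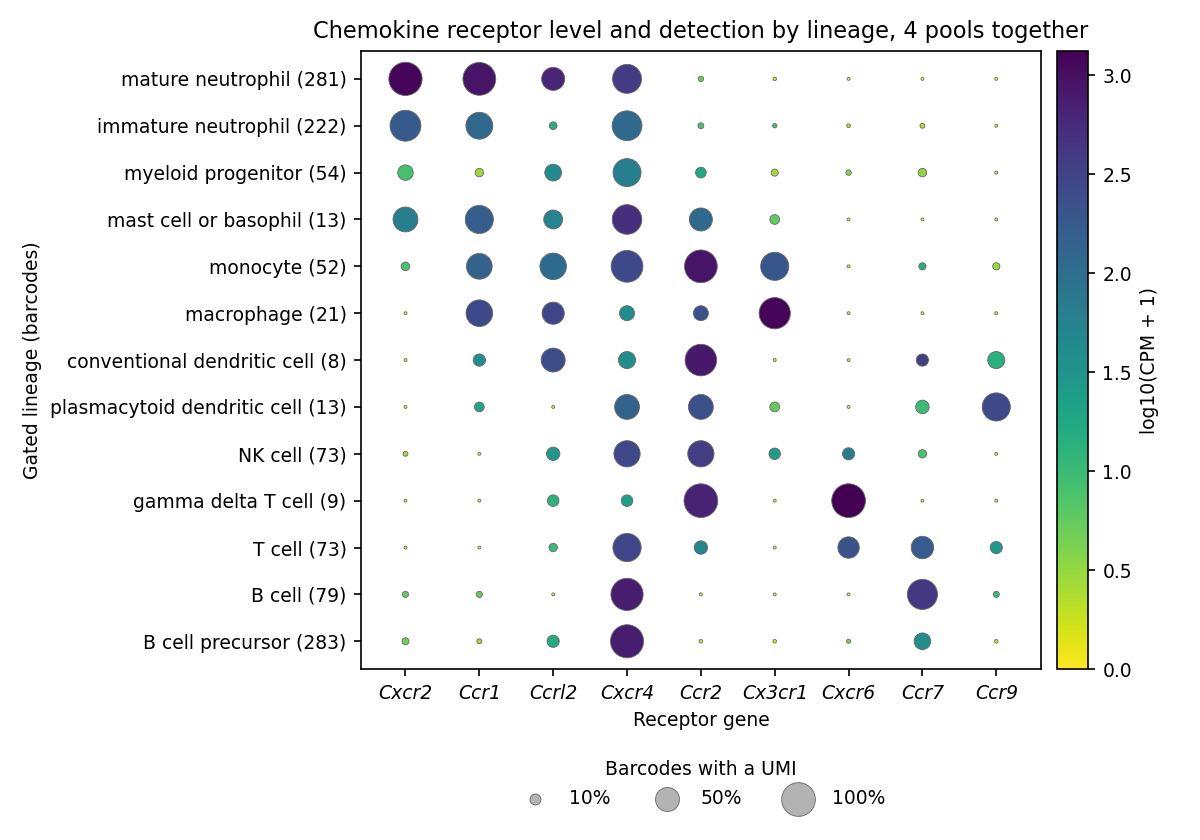
Level and detection of the 9 receptors (columns) in the 13 gated lineages with at least 8 barcodes (rows, barcode number in brackets), 4 pools together. Colour gives log10(CPM + 1) and dot area the share of barcodes with a UMI, the smallest dots marking shares at or near 0. Cxcr2 and Ccr1 peak in mature neutrophils, Cx3cr1 in macrophages, Cxcr6 in gamma delta T cells and Ccr9 in plasmacytoid dendritic cells, whereas Cxcr4 is spread over most lineages.

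Cxcr2, the receptor for Cxcl1 and Cxcl2 that draws neutrophils out of marrow and blood, was mainly a neutrophil transcript in these cells. Mature neutrophils held 1205 CPM (1151 to 1262) and a UMI in 97.2% of 281 barcodes. Their pools gave 1591 in sham, 1085 on day 3, 1320 on day 7 and 1090 on day 14. Immature neutrophils held 178 CPM (165 to 191), with 132, 177, 293 and 161 in the sham, day 3, day 7 and day 14 pools. The pools of mature and immature neutrophils did not overlap. Mature neutrophils carried 68.9% and immature neutrophils 25.5% of all Cxcr2 UMIs. Mast cells or basophils came next in level with 60.2 CPM from 13 UMIs, with a UMI in 53.8% of 13 barcodes. Their pools ran from 0 to 147 CPM and overlapped those of immature neutrophils. B cell precursors, at a median of 6292 UMIs against 5114 in mature neutrophils, had a Cxcr2 UMI in 3.53% of barcodes (1.71 to 6.4). Their pools ran from 0% on day 7 to 7.23% on day 3, and 1 of 73 NK cells held a UMI. The source of these UMIs was not tested. Macrophages, T cells and both dendritic cell lineages had none, and a count of 0 in the 73 T cells allows up to 6.75 CPM.

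Ccr1, a receptor for Ccl3, Ccl5 and related CC chemokines, was likewise highest in mature neutrophils but not restricted to neutrophils. Mature neutrophils held 918 CPM (871 to 967) and a UMI in 94.7% of barcodes, and the pools were at 974, 971, 787 and 836 for sham, day 3, day 7 and day 14. This range lay above every other lineage. Macrophages followed at 269 CPM (202 to 350), mast cells or basophils at 157, monocytes at 139 (117 to 164) and immature neutrophils at 119 (108 to 131), and neighbours in this order overlapped between pools. In the macrophages 32.7% of the 55 Ccr1 UMIs came from 1 of 21 barcodes. No Ccr1 UMI was found in 73 T cells or 73 NK cells.

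Ccrl2 was split among mature neutrophils: 130 of 281 barcodes held at least 1 UMI (46.3%, 40.3 to 52.3) and 151 held none. The lineage level was 628 CPM (589 to 669), and the pools were at 820 in sham, 783 on day 3, 307 on day 7 and 306 on day 14. Immature neutrophils held 13.8 CPM, with a UMI in 4.50% of barcodes, and 60.4% of those 53 UMIs came from 1 barcode. Macrophages (288 CPM, 219 to 372) and conventional dendritic cells (252, of which 66.7% in 1 barcode) were next over all pools, then monocytes with 111 (91.1 to 133) and a UMI in 61.5% of barcodes. Among macrophages the pools ran from 0 UMIs in the 6 sham barcodes through 65.4 on day 3 and 594 on day 7 to 432 CPM on day 14, with 4 to 7 barcodes in each noise pool. These ranges overlap those of mature neutrophils: macrophages stood above them on days 7 and 14, and the 2 conventional dendritic cells of day 3, at 1178 CPM, did so on day 3. B cells and plasmacytoid dendritic cells had no Ccrl2 UMI.

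Over all pools, mature neutrophils with and without Ccrl2 differed in depth and in the CPM of the other receptors. Barcodes with a Ccrl2 UMI had a median of 4045 UMIs, against 6236 in those without. In CPM, Cxcr2 stood at 1390 with Ccrl2 and 1078 without, Ccr1 at 1070 with and 813 without, and Cxcr4 at 468 with and 317 without. Counted per barcode the same contrasts were small, at 6.69 with and 6.46 UMIs without for Cxcr2, 5.15 and 4.87 for Ccr1, and 2.25 and 1.90 for Cxcr4. The pools were not alike in this. On day 7 the median was 5230 UMIs with Ccrl2 and 4357 without, and Cxcr2 stood at 1325 CPM with and 1316 without. Ccr1 and Cxcr4 kept the direction of all pools on that day, Ccr1 at 861 CPM with and 746 without, and Cxcr4 at 634 with and 476 without. On day 14 Cxcr2 was at 1108 with and 1081 without, Ccr1 at 762 with and 872 without, and Cxcr4 at 312 with and 320 without.

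Cxcr4, the marrow retention receptor, was highest in the B lineage. B cell precursors held 767 CPM (734 to 801) with a UMI in 96.1% of 283 barcodes, and B cells held 741 (662 to 826) with a UMI in 91.1% of 79. Precursor pools were at 832 in sham, 782 on day 3, 536 on day 7 and 981 on day 14, and B cell pools ran from 692 to 775. Mast cells or basophils held 500 CPM, with pools from 114 to 815. Mature neutrophils (379, 349 to 411), T cells (298), NK cells (275) and monocytes (274) followed with overlapping pools. Immature neutrophils held 114 (103 to 125), myeloid progenitors 61.1 and macrophages 39.1, from 8 UMIs. The 9 gamma delta T cells held 2 Cxcr4 UMIs, both in 1 barcode.

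Ccr2, the receptor for Ccl2 that marks classical monocytes, had 52.9% of its UMIs in the 52 monocytes. They held 911 CPM (854 to 972) with a UMI in 94.2% of barcodes, and their pools gave 845 in sham, 1077 on day 3, 552 on day 7 and 704 on day 14. Conventional dendritic cells held 827 (690 to 983), all 9 gamma delta T cells held Ccr2 at 657 CPM (497 to 854), and NK cells held 364 (317 to 417) with a UMI in 60.3% of 73 barcodes. Macrophages stood at 230 CPM, but 55.3% of their 47 UMIs came from 1 barcode. Neighbours in this order overlapped between pools. Mature neutrophils (6 UMIs), B cell precursors (1 UMI) and B cells (none) were at or near 0.

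Cx3cr1, the receptor for fractalkine, was highest in macrophages and lower in monocytes. Macrophages held 1207 CPM (1061 to 1367) with a UMI in 85.7% of 21 barcodes, and the pools were at 872, 965, 1558 and 1340 for sham, day 3, day 7 and day 14, from 4 to 7 barcodes each. Monocytes held 193 (166 to 222) with a UMI in 69.2%, and pools of 131, 284, 47.3 and 91.3 in the same order. The macrophage pools lay above the monocyte pools without overlap, and NK cells followed with 26.1 CPM. Conventional dendritic cells had no Cx3cr1 UMI among 8 barcodes. Leiden clusters taken as lineages in place of the marker gates put the macrophage level at 656.

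Cxcr6, the receptor for membrane-bound Cxcl16, was found in every gamma delta T cell. Those 9 barcodes held 1327 CPM (1093 to 1595), with pools from 1141 to 2299, above every other lineage. Without the barcode with the most Cxcr6 UMIs in each of the 4 pools the level was 711. T cells held 216 (179 to 258) with a UMI in 39.7% of 73 barcodes, and NK cells 68.0 (48.3 to 92.9) with a UMI in 12.3%. T cell pools were at 187 in sham, 165 on day 3, 308 on day 7 and 276 on day 14, and NK cell pools at 98.7, 24.6, 73.6 and 199. The NK values on days 7 and 14 came from 1 barcode each, with 6 and 11 UMIs, and the NK level lay between 18.8 and 172 under the alternatives tried. No Cxcr6 UMI was present in mature neutrophils, B cells, macrophages, monocytes or dendritic cells, and 0 UMIs in mature neutrophils allows up to 2.41 CPM.

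Ccr7, which leads lymphocytes and activated dendritic cells to lymph nodes, was highest in B cells, at 412 CPM (354 to 476) and in 79.7% of barcodes. B cell pools were at 405 in sham, 503 on day 3, 310 on day 7 and 258 on day 14. The conventional dendritic cells came next at 349, but all 54 UMIs lay in 1 of 8 barcodes. T cells held 174 (141 to 212) with a UMI in 43.8%, and B cell precursors 39.3 (32.1 to 47.6) with a UMI in 23.7%. Mature neutrophils, macrophages and gamma delta T cells had none.

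Ccr9, the receptor for the gut and thymus chemokine Ccl25, was the rarest member, with 50.0% of its UMIs in 13 plasmacytoid dendritic cells. These held 263 CPM (200 to 340) with a UMI in 69.2% of barcodes, from 16 UMIs in sham, 37 on day 3, 5 on day 7 and 0 on day 14, where the lineage had 4, 7, 1 and 1 barcodes. T cells held 27.4 CPM from 15 UMIs. Both neutrophil stages, NK cells, macrophages and myeloid progenitors had no Ccr9 UMI.

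How far did receptor levels differ between related lineages of the same pool? UMIs were summed per lineage and pool, and the 4 pools served as samples in edgeR's quasi-likelihood test with pool as a block and Benjamini-Hochberg adjustment over all genes tested. Of the 9 receptors, 4 passed the count filter in neutrophils, and these were higher in mature than in immature neutrophils, where 54.1% of the 3552 genes tested differed in either direction. The log2 fold changes were 2.49 ± 0.22 (SE) for Cxcr2 (adjusted p = 6.7e-06), 2.77 ± 0.20 for Ccr1 (1.9e-06), 5.71 ± 0.42 for Ccrl2 (2.1e-06) and 1.34 ± 0.18 for Cxcr4 (0.000101). All 4 were higher in 4 of 4 pools. Ccrl2 passed the filter through its mature neutrophil counts, since immature neutrophils held 1, 48, 0 and 4 UMIs in the sham, day 3, day 7 and day 14 pools, 32 of the 48 in 1 barcode, so its fitted fold depends on few counts and is no bound. The Cxcr4 pool values were 313, 372, 533 and 317 CPM in mature neutrophils, against 115, 106, 158 and 116 in immature neutrophils (sham, day 3, day 7, day 14).

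The Cxcr4 difference between neutrophil stages was present in the share of transcripts and was not found in transcripts per barcode. Mature neutrophils averaged 2.06 Cxcr4 UMIs per barcode and immature neutrophils 1.97, at median depths of 5114 and 15538 UMIs. With sums scaled to the number of barcodes the log2 fold change was -0.045 and the call was lost (edgeR adjusted p = 0.827). Cxcr2 stayed apart on that scale, at 6.57 UMIs per barcode in mature and 3.08 in immature neutrophils. A Cxcr4 UMI was seen in 73.7% of mature and 77.9% of immature barcodes, and in 49.6% and 21.0% after every barcode was thinned to 2000 UMIs. That scaling, added after the data had been seen, moved the median log2 fold change of all genes in this contrast to -1.39.

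In the B lineage, Ccr7 was lower in precursors than in B cells by a log2 fold change of -3.48 ± 0.21 (edgeR adjusted p = 1.5e-07), in 4 of 4 pools. Its pool values were 46.5, 46.4, 26.2 and 32.4 CPM in precursors, against 405, 503, 310 and 258 in B cells (sham, day 3, day 7, day 14). Precursors held 38, 35, 17 and 13 Ccr7 UMIs in those pools, and Ccr7 passed the count filter through its B cell counts. Cxcr4 did not pass the test, with -0.13 ± 0.16 (adjusted p = 0.604), and this small value was 0.08 when only library size was used for scaling. Scaled to barcodes, Cxcr4 was higher in precursors by 0.74 (adjusted p = 0.0264), with 7.11 UMIs per precursor barcode and 4.10 per B cell barcode. That scaling moved the median log2 fold change of all genes in this contrast to 0.94, so Cxcr4 lay below the median gene. Thus 1 of the 2 members tested differed, where 27.1% of all genes tested did.

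T cells and NK cells differed in 2 of the 3 members tested, where 14.7% of all genes tested did. Ccr2 was lower in T cells by a log2 fold change of -2.62 ± 0.33 (edgeR adjusted p = 1.9e-05), with 26.7, 42.4, 86.8 and 51.7 CPM in T cells, against 368, 372, 233 and 507 in NK cells (sham, day 3, day 7, day 14). T cells held 4, 9, 11 and 3 Ccr2 UMIs in those pools. Ccr2 passed the count filter through its NK cell counts, so its fitted fold depends on few T cell counts. Cxcr6 was higher in T cells by 1.72 ± 0.33 (adjusted p = 0.00119), in 4 of 4 pools. NK cells held 15, 7, 6 and 11 Cxcr6 UMIs in those pools, with those of day 7 and of day 14 in 1 barcode each. Cxcr6 passed the count filter through its T cell counts, so its fitted fold depends on few NK cell counts. With Leiden clusters as lineages the Cxcr6 difference was 0.27 (adjusted p = 0.573) and no longer passed. Cxcr4 did not pass (0.48 ± 0.26, adjusted p = 0.309).

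**Figure D2:**
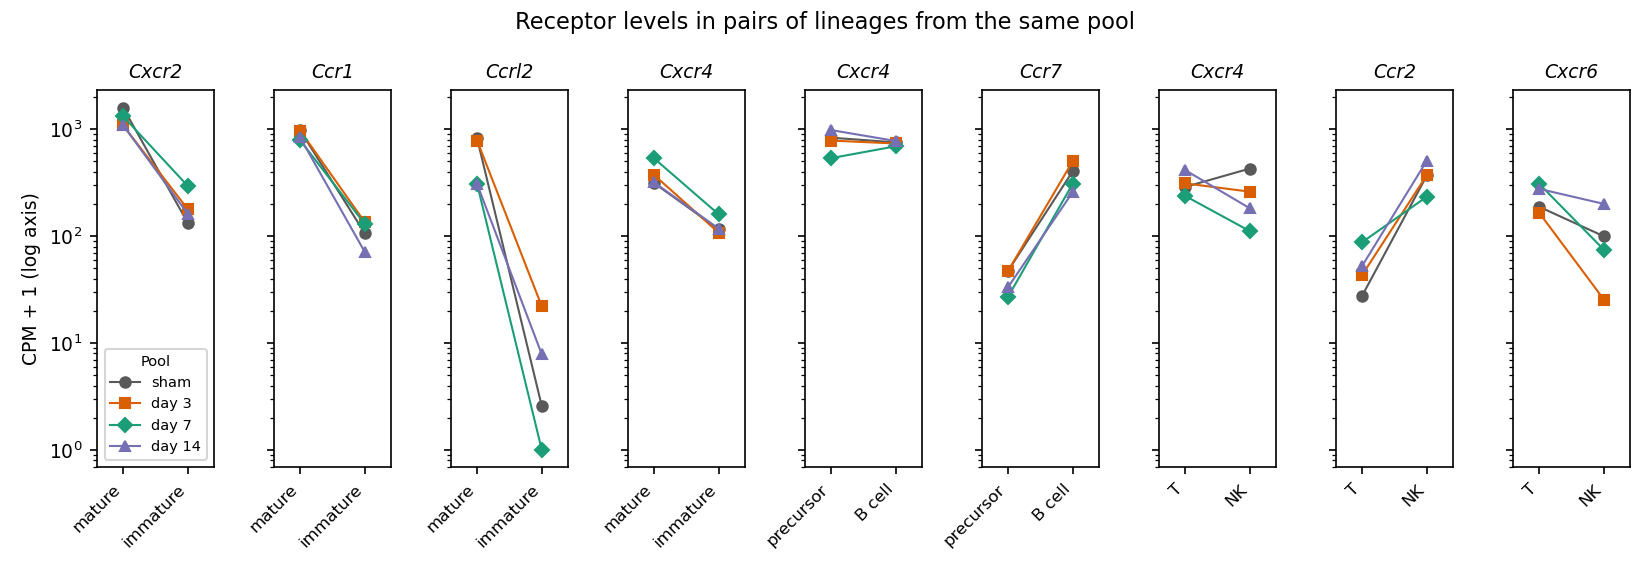
Receptor level (CPM + 1, log axis) in pairs of lineages, each line joining the lineages of 1 pool. Mature neutrophils lie above immature ones for Cxcr2, Ccr1, Ccrl2 and Cxcr4 in all 4 pools, B cell precursors lie below B cells for Ccr7, and T cells lie below NK cells for Ccr2 and above them for Cxcr6.

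Did the receptors differ between the pools after noise and the sham pool? Ratios were formed within lineages that had at least 30 barcodes in both pools, for genes whose UMIs in the pair of pools summed to 20 or more, and a gene counts as changed where the ratio is 1.5-fold or further from 1. With 1 pool a condition there is no test, every ratio shares the sham pool, and differences between the mice of the pools cannot be told apart from effects of noise. In mature neutrophils Ccrl2 fell and Cxcr4 rose on day 7, and Ccrl2 fell on day 14, while none of the 4 measured members changed on day 3. The shares of all measured genes past the same fold were 25.4% on day 3, 23.2% on day 7 and 28.3% on day 14.

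Ccrl2 in mature neutrophils had a ratio to sham of 0.954 (0.812 to 1.12) on day 3, 0.374 (0.283 to 0.489) on day 7 and 0.373 (0.285 to 0.485) on day 14. The UMIs behind these ratios were 602, 76 and 82 on days 3, 7 and 14, against 202 in sham. The share of barcodes with a Ccrl2 UMI was 50.4% on day 3, 36.7% on day 7 and 31.9% on day 14, against 58.3% in sham. Barcodes with 5 or more Ccrl2 UMIs made up 23.4% on day 3, 12.2% (4.63 to 24.8) on day 7 and 10.6% (3.55 to 23.1) on day 14, against 27.1% (15.3 to 41.8) in sham. Thinned to 2000 UMIs a barcode, the shares with a UMI were 36.2%, 21.3% and 27.5% on days 3, 7 and 14, against 53.3% in sham. The summed mature neutrophil markers stood at 49120, 43882 and 49837 CPM on days 3, 7 and 14, against 44955 in sham, and the immature markers at 4416, 3628 and 5602, against 6036 in sham. Their part in the Ccrl2 ratios was not tested.

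**Figure D3:**
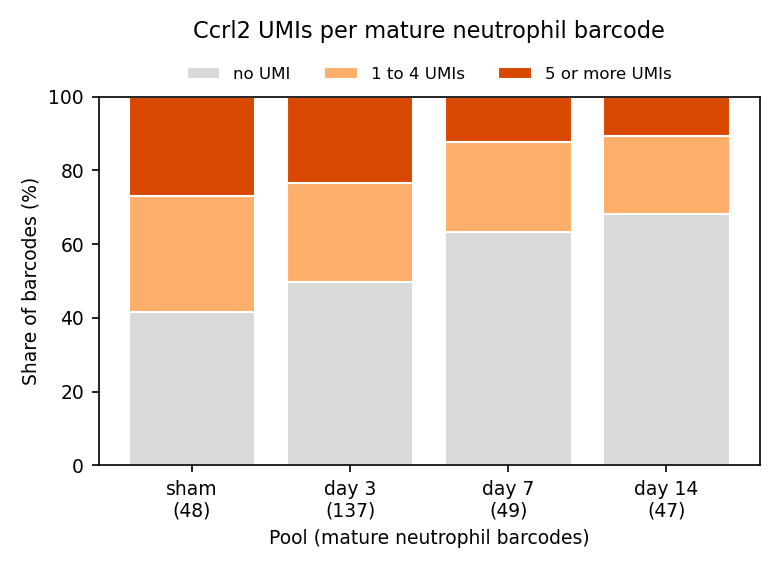
Share of mature neutrophil barcodes (%) with no Ccrl2 UMI, 1 to 4 UMIs, or 5 or more UMIs, by pool, with the barcode number in brackets. Barcodes with no UMI were 20 of 48 in sham, 68 of 137 on day 3, 31 of 49 on day 7 and 32 of 47 on day 14.

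Cxcr4 in mature neutrophils had a ratio of 1.19 (0.922 to 1.55) on day 3, 1.70 (1.28 to 2.29) on day 7 and 1.01 (0.737 to 1.4) on day 14, so the day 7 pool stood alone. The day 7 pool averaged 2.69 Cxcr4 UMIs per mature neutrophil barcode, against 1.60 in sham. Cxcr2 was lower than in sham on all 3 days by less than the fold used, with ratios of 0.682 (0.604 to 0.771), 0.829 (0.714 to 0.963) and 0.685 (0.587 to 0.799) on days 3, 7 and 14. Its share of barcodes with a UMI was 96.4%, 100% and 95.7% on those days, against 97.9% in sham. Ccr1 was at 0.997 (0.861 to 1.16), 0.808 (0.665 to 0.980) and 0.858 (0.712 to 1.03).

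**Figure D4:**
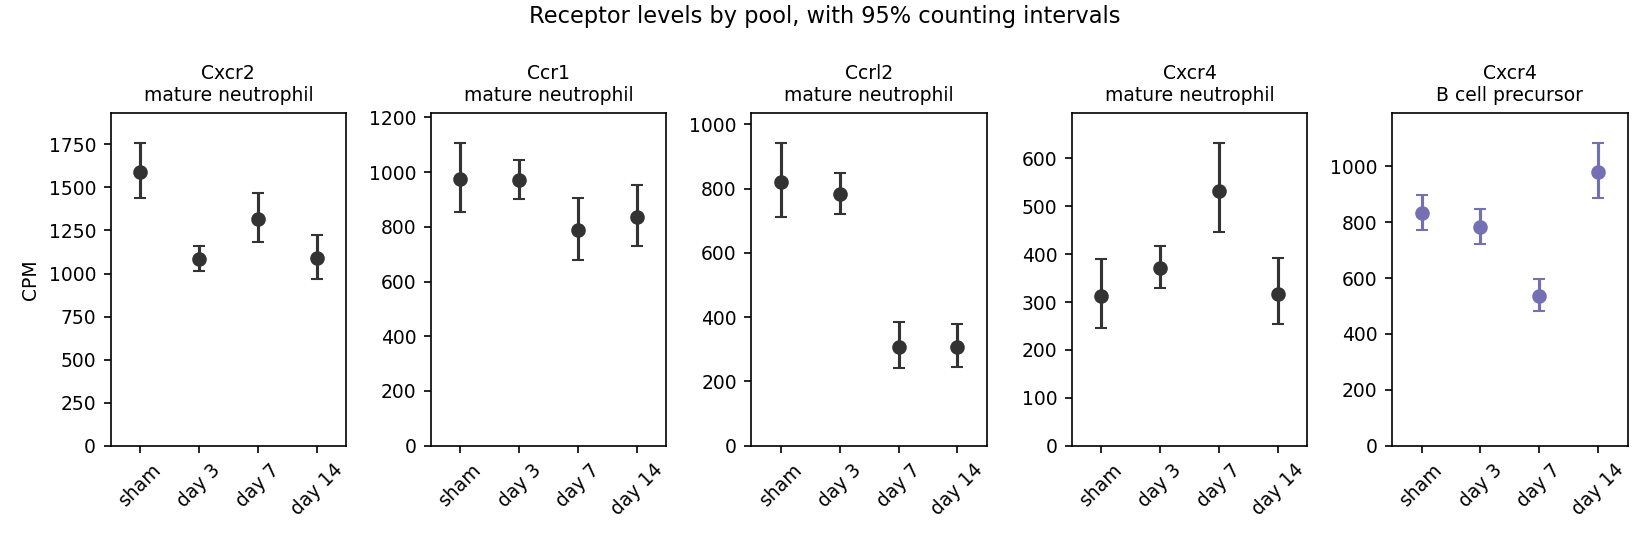
Levels (CPM) of Cxcr2, Ccr1, Ccrl2 and Cxcr4 in mature neutrophils and of Cxcr4 in B cell precursors, by pool. Points are the pool level and bars the 95% Poisson interval for counting error. Ccrl2 is at 820 and 783 in the sham and day 3 pools, and at 307 and 306 in the day 7 and day 14 pools.

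In immature neutrophils 3 of 6 measured members rose on day 3, where 28.6% of all measured genes changed, and each rested on few barcodes. Cx3cr1 had 27 UMIs on day 3 and none in sham, at least 2.51-fold higher against 3 UMIs as the floor of the sham pool. Ccr2 had 25 UMIs on day 3 and 1 in sham, a ratio of 6.98 (1.14 to 287). All of these UMIs lay in 3 of 133 day 3 barcodes, which had a median of 32968 UMIs and held the 8 macrophage markers at 4469 CPM in sum, with 7 detected. The other 130 barcodes had a median of 15423 UMIs and macrophage markers at 6.95 CPM. Ccrl2 had 48 UMIs on day 3 and 1 in sham (13.4, 2.29 to 540), of which 32 lay in 1 barcode, and its ratio was 0.357 in thinned barcodes. The part of these barcodes in the ratios was not tested. Cxcr2 had a ratio of 1.35 (1.06 to 1.72), Ccr1 of 1.28 (0.976 to 1.69) and Cxcr4 of 0.929 (0.713 to 1.22) on day 3. The summed mature neutrophil markers of this lineage stood at 11084 CPM on day 3, against 8446 in sham. Its myeloid progenitor markers stood at 84.1, against 1954 in sham. The part of these markers in the receptor ratios was not tested.

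On day 14 the immature neutrophils had 1 of 3 measured members past the fold, where 26.0% of all measured genes were. Ccr1 was at 70.0 CPM on day 14, against 105 in sham, a ratio of 0.666 (0.440 to 0.997) that lies at the edge of the fold. It was within the fold with a stricter hashtag rule or gate and without the mitochondrial filter. Cxcr2 was at 1.22 (0.898 to 1.65) and Cxcr4 at 1.01 (0.718 to 1.43). On day 7 the lineage had 25 barcodes and no ratio was formed, with Cxcr2 at 293 CPM on day 7, against 132 in sham. In the same barcodes the summed mature neutrophil markers stood at 20803 CPM on day 7, against 8446 in sham, and the myeloid progenitor markers at 26.4, against 1954, and their part in the Cxcr2 values was not tested.

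In B cell precursors Cxcr4 and Ccr7 were the measured members on every day. On day 7 both fell, where 23.1% of all measured genes changed. Cxcr4 stood at 536 CPM on day 7, against 832 in sham, a ratio of 0.643 (0.564 to 0.733). Counted per barcode it was 6.57 UMIs on day 7 and 7.08 in sham, a ratio of 0.927, which is not past the fold. Ccr7 had 17 UMIs on day 7 and 38 in sham, a ratio of 0.562 with an interval that includes 1 (0.298 to 1.02). The summed precursor markers were at 9531 CPM on day 7, against 11318 in sham. Their part in the Cxcr4 ratio was not tested.

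On day 3 the precursors had Cxcr4 at 0.940 (0.840 to 1.05) and Ccr7 at 0.997 (0.612 to 1.62) of sham, where 16.4% of all measured genes were past the fold. Ccrl2 was the third measured gene on that day, with 18 UMIs, against 11 in sham, and a ratio of 1.77 whose interval includes 1 (0.793 to 4.15). On day 14 neither measured member changed, where 21.6% of all measured genes did, with Cxcr4 at 1.18 (1.04 to 1.34) and Ccr7 at 0.697 (0.341 to 1.34). Mature B cells could be compared on day 3 alone, where 24.1% of all measured genes changed. Cxcr4 was at 0.976 (0.752 to 1.27) and Ccr7 at 1.24 (0.887 to 1.75) of sham, neither past the fold.

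Many ligands of these receptors were detected in the same suspension, mainly in myeloid and NK cells. Cxcl2, a ligand of Cxcr2, stood at 2462 CPM in macrophages, 2046 in mast cells or basophils and 1766 in mature neutrophils. The Ccr2 ligands Ccl2 and Ccl12 were highest in macrophages (1089 and 1148 CPM), and monocytes came next at 350 and 224. Ccl3, a ligand of Ccr1, and the related chemokine Ccl4 were highest in mast cells or basophils, at 2851 and 2786. NK cells held Ccl5 at 6464 CPM with a UMI in 94.5% of barcodes. The Cxcr6 ligand Cxcl16 was highest in macrophages (318 CPM). Over all pools the Ccr9 ligand Ccl25 was low and highest in NK cells (27.9 CPM). B cell precursors held Ccl25 at 31.8 CPM on day 3, from 24 UMIs, and at 20.8 in sham, from 17 UMIs. Ligands made by stromal cells were nearly absent from the CD45+ sort, with 1 UMI of Cxcl12, 3 of Cx3cl1, 0 of Ccl19, 1 of Ccl21a and 2 of Rarres2, which encodes chemerin.

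In mature neutrophils 5, 4 and 6 of the 22 ligands were measured on days 3, 7 and 14. Of these, 2 were higher and 1 lower past the fold on day 3, 1 was lower on day 7 and 1 higher on day 14, where 25.4%, 23.2% and 28.3% of all measured genes were past it. On day 3, Ccl3 rose to 776 CPM, against 300.4 in sham (2.58, 2.03 to 3.34), and Ccl4 rose to 938, against 621 (1.51, 1.27 to 1.81). The ligand past the fold downward on day 3 was Ccl9 and the ligand past it upward on day 14 was Mif, both with intervals that include 1 and named after their values were seen. On day 7, Cxcl2 fell to 573, against 1778 in sham (0.322, 0.265 to 0.390). The median log2 ratio of the measured ligands was 0.35 on day 3, -0.20 on day 7 and -0.19 on day 14, beside -0.03, -0.01 and -0.12 over all measured genes. Of 22 genes for receptor signalling and desensitisation, 20, 18 and 19 were measured and 2, 2 and 3 were past the fold, against the same shares of all measured genes. They were 1 higher and 1 lower on day 3, 2 lower on day 7, and 1 higher and 2 lower on day 14, and the medians were -0.01, 0.17 and -0.03. Rgs1, which shortens G protein signals, was among them with 85.8 CPM on day 3 and 138 on day 14, against 12.2 in sham, which is 3 UMIs. Its ratios were 7.04 (2.31 to 35.0) on day 3 and 11.3 (3.59 to 57.5) on day 14. Rgs2, another regulator of G protein signals, fell to 808 CPM on day 3, against 1222 in sham (0.662, 0.576 to 0.762).

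Other chemoattractant receptors of mature neutrophils were mostly within the fold. Of 12 other chemoattractant receptors, 8, 6 and 7 were measured on days 3, 7 and 14, with 1 higher on day 3, 2 lower on day 7 and 1 lower on day 14 past the fold, beside 25.4%, 23.2% and 28.3% of all measured genes. The medians were -0.20, -0.31 and -0.28. Fpr2, a formyl peptide receptor, had a ratio of 0.625 (0.440 to 0.884) on day 7 and was within the fold on day 3 (0.745, 0.578 to 0.966). C5ar1, the receptor for complement C5a, was within the fold on day 14 (0.747, 0.590 to 0.944). The others past the fold, named after their values were seen, were S1pr4 on day 3 (2.15, 0.966 to 5.64) and the leukotriene B4 receptor Ltb4r1 on day 7 (0.591, 0.332 to 1.03) and day 14 (0.621, 0.358 to 1.06), all with intervals that include 1. None of 10 genes for neutrophil release and ageing were past the fold among the 9 measured on day 7 and the 9 on day 14, and 1 of 10 was on day 3.

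In immature neutrophils on day 3, 6 of the 7 measured ligands were past the fold and higher, with a median log2 ratio of 1.70 beside 0.00 over all measured genes, of which 28.6% were past the fold in either direction. The summed macrophage markers of this lineage stood at 248 CPM on day 3, against 1.57 in sham, and the myeloid progenitor markers at 84.1, against 1954, and their part in the ligand ratios was not tested. Cxcl2 rose to 176 CPM, against 36.1 in sham (4.88, 3.21 to 7.79). Ccl12 was among them, with 34 of its 36 UMIs in the lineage in 1 barcode. In B cell precursors on day 7, 5 of 16 signalling genes were past the fold, 4 of them lower, where 23.1% of all measured genes were past it. Among them was Rgs2 at 212 CPM, against 375 in sham (0.567, 0.460 to 0.695). The median of the 16 was -0.17, beside -0.01 over all measured genes.

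The 16 other chemokine receptor genes were mostly rare. Cxcr3 had 186 UMIs, with 129 CPM in gamma delta T cells and 121 in T cells. Xcr1 marked conventional dendritic cells at 239 CPM, and Cxcr5 and Ccr6 were highest in B cells at 75.5 and 77.7. Cxcr1 and Ackr2 had no UMI in the 1285 barcodes, and Ccr3, Ccr4, Ccr8, Ackr1, Ackr3, Ackr4 and Gpr33 had 10 or fewer each.

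Genes whose level followed a receptor across lineages and pools were ranked by Pearson's r of log2(CPM + 20) over 25 lineage and pool sums of 8 lineages, among 8588 genes that are no gate marker. The sums share lineages and depth, so r describes likeness only. Cxcr2 was closest to Prok2 (0.99), Fpr1 (0.99) and Dhrs9 (0.99), and Ccr1 to A530064D06Rik, Klra2 and Cd300lb (0.99 each). Ccrl2 was closest to Pla2g7 (0.94), Gm5150 (0.93) and Nlrp3 (0.92). Cxcr4 had a lower likeness to any gene, with Nipbl (0.88), Kmt2e (0.87) and Stk4 (0.87). Ccr2 was closest to Sulf2 (0.93), Olfm1 (0.92) and Efhd2 (0.90), and Cx3cr1 to Olfm1 (0.92), Tmem106a (0.90) and Ptpro (0.90). Cxcr6 was closest to Lat (0.97), Cxcr3 (0.96) and Thy1 (0.96), Ccr7 to Gm8369 (0.97), S1pr1 (0.95) and Acp5 (0.91), and Ccr9 to Ctla4 (0.94), Cd8b1 (0.94) and Bcl11b (0.91). The 21 macrophages, 13 plasmacytoid dendritic cells and 9 gamma delta T cells formed no such sum, so the ranks of Cx3cr1, Ccr9 and Cxcr6 describe other lineages. For Ccr9 the largest counts left in these sums were 6, 3 and 5 UMIs, in T cells of the sham, day 3 and day 7 pools. Its r values therefore rest on few counts.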

How the data were processed

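The deposited matrices hold whole-number UMI counts per gene and barcode, written by Cell Ranger 3.1.0 per the file headers, with genome build mm10 per the submitters' processing notes. The second matrix repeats every gene count of the first and adds the hashtags. The strand setting and the cell calling are not given in the sources used here, and the labels name both kit versions v2 and v3. A barcode was assigned to a pool if its top hashtag had at least 10 UMIs and 80% of its hashtag UMIs (45 barcodes had several hashtags and 152 none), and kept with at least 200 genes and at most 10% mitochondrial UMIs. Doublets within a pool carry 1 hashtag, and no doublet caller was run.

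A barcode took the lineage of the marker list with the highest score (mean over markers of log counts per 10000, each scaled to its 95th percentile and capped at 1), given at least 3 detected markers, a score of 0.15 and a lead of 0.05 over the next list. All 142 markers were in the files. Leiden clusters (scanpy 1.11.5), named by the same lists, put 89.2% of gated barcodes in the same lineage. The members and gene lists were chosen with earlier results of these data known. Lineages of a pool come from the same mice, so pool was a block in edgeR 4.0.16 (R 4.3.3), with DESeq2 1.42.0 as an alternative. Pools were never tested against each other. P-values over 4 pools measure the spread between pools that also differ in treatment. Genes named from lists have the ratio whose interval bound nearest to 1 lies farthest from it, at most 4 a list and comparison, and for each receptor the 3 genes of highest likeness. The scripts were tested on simulated data. Promoter sequences are RefSeq's, on GRCm38.p6, which holds an entry for 8 of the 9 receptors, all but Ccr7. Sums and intervals were computed in Python 3.11.15 (scipy 1.17.1 for intervals, pandas 2.3.3 and numpy 2.4.6 for sums), and figures were drawn with matplotlib 3.10.9. One gene of the list of other chemokine receptors is not reported here.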

Additional observations from a re-analysis of the deposited data

Results flagged for a closer look

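Cxcr4 moved in opposite directions on day 7 in mature neutrophils and in B cell precursors. The ratio to sham was 1.70 in mature neutrophils and 0.643 in B cell precursors, both with intervals that exclude 1. With 1 pool a condition this difference was not tested. Counted per barcode, the B cell precursor ratio was 0.927.

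Cx3cr1 was found outside the compared barcodes, with 6 UMIs in 4 of the 152 barcodes without a hashtag. These held 102134 UMIs in all, so its level was 58.7 CPM, against 38.8 CPM in the 1285 compared barcodes. As 6 UMIs are few and the floor of 3 UMIs stands at 29.4 CPM there, no difference is read from these levels. Cxcr4 had 3 UMIs in the barcodes without a hashtag, Ccr7 had 2, and Ccr2 and Cxcr6 had 1 each. Cxcr2, Ccr1, Ccrl2 and Ccr9 had no UMI in these barcodes.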

How the results depend on the processing

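Among the lineages recomputed, the one with the highest level of each receptor was the same under each alternative, except that with Leiden lineages B cells led for Cxcr4 and Ccr9 had no value in its lineage. Leiden lineages gave 1316 CPM for Cxcr2, 998 for Ccr1 and 727 for Ccrl2 in mature neutrophils, 656 for Cx3cr1 in macrophages and 1039 for Cxcr6 in gamma delta T cells. A stricter gate gave 1291, 979 and 695 for the 3 neutrophil receptors. With barcodes weighted alike the values were 1431, 1128 and 889, with 1062 for Cxcr4 in B cell precursors, 1020 for Ccr2 in monocytes and 378 for Ccr9 in plasmacytoid dendritic cells. Thinned barcodes gave 1372, 1086 and 866, then 1068, 1077 and 462. Without the top barcode of each pool the levels were 531 for Ccrl2, 966 for Cx3cr1, 711 for Cxcr6 and 197 for Ccr9, and barcodes of any hashtag gave 821 for Cxcr4 and 403 for Ccr9.

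Of 237 ratios recomputed under an alternative, 216 stayed within the 95% interval of the value reported, 19 moved and 2 reversed. In mature neutrophils the thinned ratios were 0.795 for Ccrl2 on day 3 and 0.682 for Cxcr2 on day 7, and Ccrl2 on day 14 was 0.285 with barcodes weighted alike, 0.263 without the top barcode of each pool and 0.248 thinned. Cxcr4 on day 7 in B cell precursors was 0.734 with Leiden lineages, 0.775 weighted alike, 0.748 thinned and 0.927 per barcode. The reversed ratios were Ccrl2 (0.357, thinned) and Cx3cr1 (0.970, weighted alike) on day 3 in immature neutrophils. The number of receptors past the fold became 1 on day 3 (weighted alike), 1 on day 7 and 2 on day 14 (thinned) in mature neutrophils, and 1 on day 3 in immature neutrophils (weighted alike, or without the top barcode of each pool). On day 14 it became 0 in immature neutrophils under the stricter hashtag rule, the stricter gate, no mitochondrial filter, equal weights, thinning and counts per barcode. In B cell precursors it became 1 on day 7 with Leiden lineages and 0 under equal weights, thinning and counts per barcode, and 1 on day 14 under equal weights, thinning, counts per barcode and without the top barcode of each pool. In B cells it became 1 on day 3 when thinned. The cause was not tested.

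In the lineage tests, scaling to barcodes (chosen after seeing the data) reversed Cxcr4 between neutrophil stages (-0.045, call lost) and gave 2 called members between B cell precursors and B cells, where the median of all genes moved to 0.94 with it. Leiden lineages left 1 called member between T and NK cells. Without the replicate block, and with DESeq2, no call changed: the block-free log2 fold changes were 2.46 for Cxcr2, 2.74 for Ccr1, 5.36 for Ccrl2 and 1.36 for Cxcr4 between neutrophil stages. Leaving out each pool kept 4, 1 and 2 called members in the neutrophil, B lineage and T and NK contrasts, with Cxcr6 between 1.26 and 2.04 and Ccrl2 between 5.21 and 6.73. Library size alone moved the median log2 fold change of all genes to 0.26, 0.25 and -0.26 in the 3 contrasts, and the split of higher and lower calls between neutrophil stages to 1306 and 664, against 1003 and 919 as reported, and per barcode it was 228 and 2749. For B cell precursors against B cells the splits were 799 and 427 by library size, 2129 and 183 per barcode, and 543 and 582 as reported, and for T against NK cells 120 and 201, 71 and 153, and 187 and 102.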

Other observations

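Cxcr6 was also present in barcodes outside every gate, and the genes listed next were chosen after values had been seen. Of the 44 ungated barcodes, 16 held a Cxcr6 UMI (36.4%, 22.4 to 52.2). In those 16, Il7r stood at 711 CPM, Ncr1 at 764, Rora at 270 and Gata3 at 202, against 46.9, 51.2, 27.7 and 59.7 CPM in the 28 ungated barcodes without Cxcr6. Cd3e had no UMI in the 16. The 83 Cxcr6 UMIs of the ungated barcodes were 5 in sham, 38 on day 3, 23 on day 7 and 17 on day 14, from 14, 15, 7 and 8 barcodes. Ungated barcodes also held 24 Ccr9 UMIs in 5 barcodes.

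Barcodes with several hashtags, which were left out, held Cxcr4 at 552 CPM in 42 of 45 barcodes and Cxcr2 at 227 CPM in 25 of 45. NK cells had Cxcr4 at 260 CPM on day 3, 110 on day 7 and 181 on day 14, against 428 in sham, from 32, 11, 6 and 24 barcodes, and no ratio was formed there because fewer than 30 sham barcodes were present.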
